A study of Mus musculus with 57 samples.

Results

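Heat shock proteins and the transcription factor Hsf1 were followed in the transcriptomes of CD11b-positive cells from brains of mice with and without the receptor P2RY12. The 10 genes were taken by symbol: Hspa1a, Hspa1b, Hspa8, Hsp90aa1, Hsph1, Dnajb1, Dnaja1, Hspb1, Hspe1 and Hsf1. All 10 were found in both deposited count tables, of 50565 genes in one and 53278 in the other. P2RY12 senses extracellular nucleotides and marks resting microglia, the resident macrophages of the brain, and the study asked what its loss changes in their transcriptome. In the first experiment, called the sex experiment here, adult animals had received no stated treatment: 4 male wild-type (WT), 5 male knockout (KO), 4 female WT and 5 female KO mice, the KO animals lacking P2RY12 and being littermates of the WT. In the second, called the LPS experiment here, WT and KO animals carried one of the treatment labels ns and LPS. Lipopolysaccharide (LPS), from the outer membrane of bacteria, sets off inflammation, and 1 mg/kg was injected intraperitoneally. What ns stands for is not defined, and for the LPS experiment the labels give neither sex nor age nor the time between injection and collection. They describe no allele for the knockout.

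Heat shock proteins are chaperones, which bind unfolded or partly folded proteins and help them to reach or keep their structure. In resting cells Hsf1 is held inactive by chaperones, and when unfolded proteins draw these away it binds heat shock elements, repeats of the unit nGAAn in alternating orientation, and raises transcription of the inducible chaperone genes. Hspa1a and Hspa1b encode the stress-inducible Hsp70 proteins, Hspa8 the constitutive Hsc70, and Hsp90aa1 the inducible cytosolic Hsp90. Dnajb1 and Dnaja1 are J-domain partners that deliver substrates to Hsp70, and Hsph1 is a nucleotide exchange factor of the Hsp110 group. Hspe1 is the mitochondrial co-chaperonin Hsp10, and Hspb1 is a small heat shock protein. In microglia these genes are known to respond to the handling of tissue as well as to inflammation.

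Per the file headers, on the build GRCm39, Hspa1a at chr17:35188335-35191132, Hspa1b at chr17:35175405-35178214, Hspa8 at chr9:40712572-40716498 and Hsp90aa1 at chr12:110657470-110662829 were counted over their whole spans in the sex experiment, as were the other members. These were Hsph1 at chr5:149540308-149562594, Dnajb1 at chr8:84334804-84339282, Dnaja1 at chr4:40722468-40734965, Hspb1 at chr5:135916773-135918417, Hspe1 at chr1:55127307-55130476 and Hsf1 at chr15:76361562-76385355. Hspe1 overlaps Hspd1 on the other strand, Dnaja1 overlaps Gm6297 and Mir207, Hsph1 overlaps Gm20005, and Hspa8 overlaps Snord14c, Snord14d and Snord14e, so reads there may be shared.

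Promoters of 7 of the 10 genes, 11 start sites in all, were found among the RefSeq promoters of the mouse build GRCm38.p6, and Hsp90aa1, Hspa8 and Hsf1 were not among them. The 250 bases before each start were searched for 2 neighbouring units of a heat shock element, spelled GAANNTTC or TTCNNGAA, each of which reads the same on both strands. Such a pair stood before at least 1 start of 6 of the 7 members, namely Hspa1a, Hspa1b, Dnaja1, Hspb1, Hsph1 and Hspe1, and in 7 of the 11 promoters of the 7 members, against 12.8% of all 32851 promoters. Among these 7 promoters, the 2 of Hsph1 overlap and hold the same element, and those of Hspa1a and Hspa1b are nearly identical. The 7 are therefore not independent of each other. The 120 bases before the start are shown for the genes on which the results turn or whose elements differ most, with the pairs of units in capitals. The first pair of lines belongs to Hspa1a (chr17:34972157-34972276, minus strand) and Hspa1b (chr17:34959239-34959358, minus strand), whose promoters were identical at 247 of 250 bases. Hspe1 (chr1:55088028-55088147, plus strand) carried 3 overlapping pairs and was the single member with 3 units in a row, GAANNTTCNNGAA or TTCNNGAANNTTC, which 0.47% of all promoters hold. Hspb1 (chr5:135887799-135887918, plus strand) carried 2 pairs, Hsph1 (chr5:149636316-149636435, minus strand) carried 1, and Dnajb1 (chr8:83608055-83608174, plus strand) carried none in this window. A match describes the letters only and is not a measured binding site.
Hspa1a: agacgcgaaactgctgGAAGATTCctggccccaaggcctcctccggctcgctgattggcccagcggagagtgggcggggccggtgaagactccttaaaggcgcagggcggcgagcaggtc
Hspa1b: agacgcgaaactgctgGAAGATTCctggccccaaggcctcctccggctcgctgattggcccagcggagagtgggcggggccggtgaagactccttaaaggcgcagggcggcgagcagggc
Hspe1: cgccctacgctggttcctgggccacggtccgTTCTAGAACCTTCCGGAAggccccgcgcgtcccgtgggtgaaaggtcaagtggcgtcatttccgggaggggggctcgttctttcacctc
Hspb1: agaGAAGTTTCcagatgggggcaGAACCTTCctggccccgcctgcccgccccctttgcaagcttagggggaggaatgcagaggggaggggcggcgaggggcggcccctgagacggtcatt
Hsph1: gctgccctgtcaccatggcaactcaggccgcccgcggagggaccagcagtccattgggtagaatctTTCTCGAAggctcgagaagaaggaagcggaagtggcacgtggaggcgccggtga
Dnajb1: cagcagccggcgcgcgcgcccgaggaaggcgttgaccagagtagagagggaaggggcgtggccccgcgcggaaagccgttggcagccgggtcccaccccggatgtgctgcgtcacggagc

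In the deposited counts, library totals ran from 58.5 M to 318.5 M in the sex experiment (18 animals, median 92.0 M, where M stands for mega) and from 15.9 M to 168.4 M in the LPS experiment (32 samples, median 24.7 M). Levels below are CPM, the count of a gene per M counts of the scaled library total. P2ry12 lay at 3007 to 5928 CPM in the WT and 309 to 526 CPM in the KO animals of the sex experiment, and it was lower in KO by 3.42 ± 0.12 on the log2 scale (SE, adjusted p = 4.5e-13, edgeR). In the LPS experiment it lay at 3516 to 5406 CPM in WT ns, 400.3 to 1063 CPM in WT LPS, 585 to 1243 CPM in KO ns and 84.2 to 154 CPM in KO LPS samples. There the 4 WT libraries whose name ends in 2 went against their treatment label: Saa3, an acute-phase gene that LPS raises, was at 1781 and 2491 CPM in those labelled WT ns and at 1.59 and 3.21 CPM in those labelled WT LPS. Their P2ry12 levels, 481 and 927 CPM in those labelled WT ns and 4461 and 12150 CPM in those labelled WT LPS, were crossed in the same way. In the samples kept, Saa3 lay at 1418 to 9720 CPM in WT LPS, 0.86 to 3.24 CPM in KO ns and 1024 to 3698 CPM in KO LPS. Of the WT ns samples kept, WT ns 8 was at 64.35 CPM and the others at 1.52 to 4.17 CPM. The 4 WT libraries ending in 2 are shown apart and stand on neither side of the main comparisons, which leaves 6 WT ns, 6 WT LPS, 8 KO ns and 8 KO LPS samples. They stay in the fitted model as groups of their own and inform its estimates of the spread and of the library set. By another measure 6 libraries, all of library set 2, stood apart, with 2.69% to 8.55% of counts on mitochondrially encoded genes, against 0.787% to 1.81% in the other 26. They were labelled WT ns 5, WT LPS 6, WT LPS 7, KO ns 5, KO ns 6 and KO LPS 5. Of these, WT ns 5 and WT LPS 6 are among the 4 shown apart. The names of KO ns 5 and KO LPS 5 also end in 2, and those of WT LPS 7 and KO ns 6 end in 3. All 6 also had more counts on ribosomal protein genes, 2.32% to 5.65% against 1.18% to 2.09% in the other 26. They thus differed in composition beyond the mitochondrial share by which they are named here. In the LPS experiment the 10 microglial markers checked summed to 24250 to 42500 CPM in WT ns and 18590 to 27130 CPM in WT LPS samples. They summed to 36060 to 53020 CPM in KO ns and 23970 to 28810 CPM in KO LPS samples. In the sex experiment 9 of these markers were found. They summed to 24090 CPM in male WT 5 and 24750 CPM in female WT 2, against 31960 to 39370 CPM in the other animals. Neutrophil markers, from another CD11b-positive cell, summed to 50980 CPM in male WT 5 and 30570 CPM in female WT 2. In the LPS experiment they summed to 353 to 18680 CPM in WT ns, 2999 to 15890 CPM in WT LPS, 314 to 10570 CPM in KO ns and 1598 to 5333 CPM in KO LPS samples.

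In the sex experiment the inducible Hsp70 genes were abundantly counted in every animal, with at least 15399 counts of Hspa1a per library. Hspa1a lay at 155, 206, 235 and 334 CPM in the male WT and at 111, 181, 184, 199 and 240 CPM in the male KO animals. It lay at 232, 238, 238 and 252 CPM in the female WT and at 219, 237, 300, 355 and 412 CPM in the female KO animals. The groups overlapped in both sexes, and the female WT animals were the closest together, with an SD of 8.4 CPM against 46.7 to 80.6 CPM in the other groups. Hspa1b moved with its neighbour: across the 18 animals the levels of the 2 genes correlated with r = 0.98, a description in which shared reads may take part. Of 50-base stretches of the Hspa1a transcript, 58.8% occur in that of Hspa1b too, so that the sum of both is the firmer measure. That sum was 551.2 ± 187.3 CPM in male WT, 440.0 ± 111.4 CPM in male KO, 553.8 ± 24.7 CPM in female WT and 696.4 ± 187.3 CPM in female KO animals (mean ± SD, n = 4, 5, 4 and 5).

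**Figure D1:**
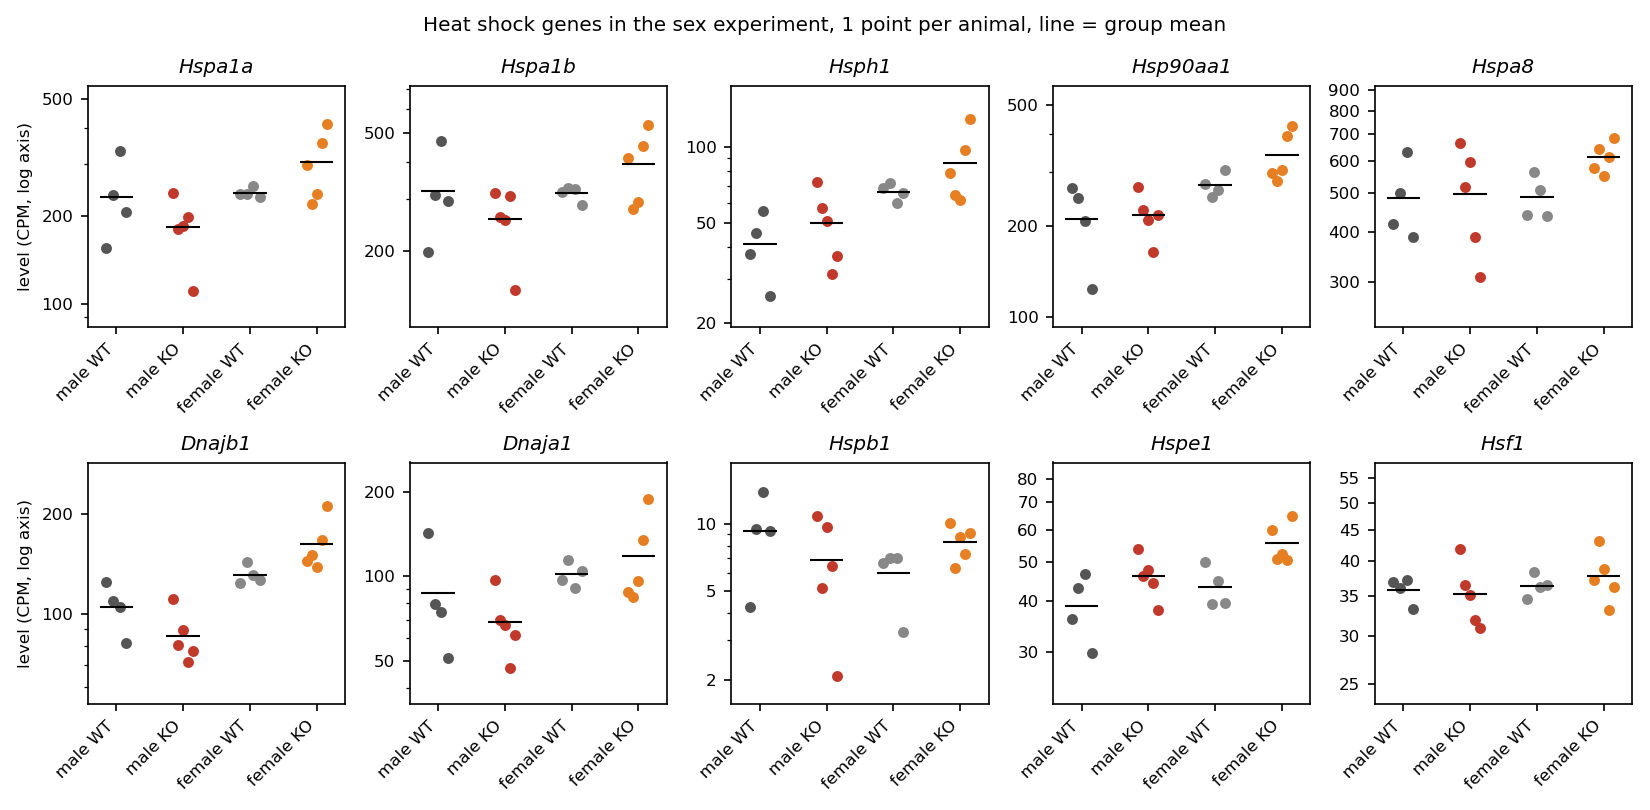
Level of each heat shock gene in each animal of the sex experiment, in CPM on a log axis, with 1 point per animal and a bar at the mean of each group. In the Dnajb1 panel the 9 female animals lie between 124 and 213 CPM and the 9 male animals between 71.3 and 124 CPM.

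No member differed by genotype at an adjusted p under 0.05 in the sex experiment. With the sexes averaged 0 of 10 passed, where 0.432% of the 31709 genes tested did. Of all genes tested 2860 had an unadjusted p under 0.05 (edgeR), and of the 10 members 1 did. That gene was Hspe1, the mitochondrial co-chaperonin, which was 0.30 ± 0.09 higher in KO on the log2 scale (SE, 95% interval 0.12 to 0.48, adjusted p = 0.21, edgeR). The summed Hsp70 pair differed by 0.00 ± 0.17 (95% interval -0.36 to 0.36), and Hsf1 differed by 0.01 ± 0.06 (95% interval -0.12 to 0.14). The estimates of the others were 0.33 ± 0.19 for Hsph1, 0.18 ± 0.13 for Hspa8 and for Hsp90aa1, 0.02 ± 0.28 for Hspb1, 0.01 ± 0.10 for Dnajb1 and -0.07 ± 0.21 for Dnaja1. In bulk samples such as these, fewer cells of a type and less RNA per cell cannot be told apart.

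Within the sexes the counts were 0 of 10 in males, where 0.00946% of all genes passed, and 0 of 10 in females, where 0.164% did. DESeq2 called none of the 10 in either sex. In females the 10 estimates ran from 0.05 for Hsf1 to 0.47 for Hspb1, with a median log2 difference of 0.33 against -0.01 over all genes tested. In males they ran from -0.43 for Hspb1 to 0.27 for Hsph1, with 4 of 10 above 0 and a median of -0.16. Female KO 4 and female KO 5 had the highest levels of their group for Hspa1a, Hspa1b, Hsp90aa1, Hsph1, Dnajb1 and Dnaja1. The same 2 animals had 931 and 1206 CPM of 8 summed markers of border macrophages, against 219 to 673 CPM in the other 16 animals, and female KO 5 had 312.5 CPM of 8 summed markers of T and NK cells, against 57.6 to 168.5 CPM in the other 17. The part of these markers in the female estimates was not tested. Hspe1 was at 39.5, 39.6, 44.9 and 49.8 CPM in female WT and at 50.4, 50.7, 52.3, 59.7 and 64.9 CPM in female KO animals. These groups did not overlap, yet the difference of 0.36 ± 0.12 missed the threshold over all genes (adjusted p = 0.55, edgeR). In males, Hspe1 was at 29.9, 36.3, 43.0 and 46.7 CPM in WT and at 38.1, 44.5, 46.1, 47.8 and 53.7 CPM in KO animals, which overlapped. Dnajb1 had the lowest interaction p of the members: it was lower in KO males by a log2 difference of -0.29 ± 0.14 and higher in KO females by 0.31 ± 0.14. The test of that difference between the sexes gave 0.60 ± 0.20 with an unadjusted p of 0.0063 and an adjusted p of 1.00, and 0% of all genes passed it. The interaction estimates of the 10 ran from 0.08 for Hsf1 to 0.90 for Hspb1. The summed level of 18 immediate early genes, which respond to tissue handling, was 4252 to 6692 CPM in male KO and 5897 to 9869 CPM in female KO animals, against 5343 to 10190 CPM in male and 5872 to 8000 CPM in female WT animals. Its part in these estimates was not tested.

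Between the sexes, Dnajb1 was the member that passed the test. Male WT animals had 81.3, 105, 109 and 124.4 CPM and male KO animals 71.3, 77.1, 80.2, 89.5 and 111 CPM. Female WT animals had 124.0, 126.5, 131 and 144 CPM and female KO animals 139, 144, 150.1, 167 and 213 CPM. Only male WT 5, at 124.4 CPM, reached the lowest female. Averaged over the genotypes, Dnajb1 was 1.54-fold higher in females (log2 0.62 ± 0.10 SE, 95% interval 0.42 to 0.83, adjusted p = 0.0029, edgeR). It passed in all 22 settings run for this comparison, at log2 differences of 0.56 to 0.67.

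The other members pointed the same way less firmly. Hsph1, the Hsp110 exchange factor, was at 25.7, 37.7, 45.3 and 55.7 CPM in male WT, 31.2, 36.9, 50.8, 57.1 and 72.3 CPM in male KO, 59.6, 65.5, 68.5 and 71.6 CPM in female WT and 61.3, 64.6, 78.8, 97.4 and 129 CPM in female KO animals. Its difference of 0.74 ± 0.19 missed the threshold (adjusted p = 0.097, edgeR), as did that of Hsp90aa1 at 0.51 ± 0.13 (adjusted p = 0.086). DESeq2, which called 2.38% of all genes here, called both, Hsph1 at an adjusted p of 0.0063 and Hsp90aa1 at 0.021. The estimates of the others were 0.51 ± 0.21 for Dnaja1, 0.39 ± 0.16 for Hspa1a, 0.29 ± 0.18 for Hspa1b, 0.22 ± 0.09 for Hspe1, 0.16 ± 0.13 for Hspa8 and 0.06 ± 0.06 for Hsf1, at adjusted p of 0.31 to 0.70. In all, 1 of 10 members was called, where 0.861% of all genes were and 0.628% were called higher in females. Of the 10 estimates 9 lay above 0 and the median was 0.34, against 0.01 over all genes tested. Hspb1, the small heat shock protein, was the exception at -0.17 ± 0.28. These estimates average the genotypes. The sum of Hspa1a and Hspa1b had means of 551.2 CPM in male and 553.8 CPM in female WT, against 440 and 696.4 CPM in KO animals. Hspa8 had means of 485.2 and 487.2 CPM in WT, against 495.6 and 613.7 CPM in KO animals. Hsph1, Hsp90aa1, Dnaja1 and Hspe1 had higher means in females in both genotypes. The library names number the males 1 to 10 and the females 11 to 20, so the sex of an animal cannot be told apart from the order of handling that these numbers may reflect. Of the 6 repeat libraries listed for these animals 5 belonged to females, and whether their reads are in the columns is not stated.

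Of 65 further chaperone genes that were listed, 1 was called between the sexes, where 0.861% of all genes were. A count of 1 among 65 is near that share and is no result about chaperones. The gene called was Hspa1l, an Hsp70 gene that lies beside Hspa1a on chromosome 17, at a log2 difference of 0.64 ± 0.13 (adjusted p = 0.020, edgeR). Its transcript holds 7.95% of the 50-base stretches of Hspa1a, so that some shared reads are possible. Among the 65 genes 17 estimates lay above 0 and 48 below, with a median of -0.04. For genotype 0 of the 65 were called with the sexes averaged, in males or in females, with 8, 2 and 9 at an unadjusted p under 0.05. Of all 31709 genes tested 2860, 2171 and 1655 had such a p (edgeR).

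The genes whose levels ran most like the mean of Hspa1a, Hspa1b, Dnajb1 and Hsph1 over the 18 animals were Gm15459 (r = 0.87), 1700016L04Rik (r = 0.87), Gm8355 (r = 0.87), Iqcn (r = 0.84) and Hsp25-ps1 (r = 0.83). These are correlations of log2 CPM between animals that share a genotype and a sex, given with no test. Among the members themselves Dnaja1 and Dnajb1 correlated with r = 0.88, and Hsp90aa1 and Hsph1 with r = 0.88.

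In the LPS experiment the constitutive Hsc70 gene Hspa8 had the lowest adjusted p of the members in both genotypes. It lay at 600.1 to 857 CPM (median 714) in WT ns and at 993 to 4852 CPM (median 1656) in WT LPS samples, which did not overlap. In KO it lay at 563 to 1104 CPM (median 811) in ns and at 726 to 3777 CPM (median 1512) in LPS samples, and KO LPS 7, at 726 CPM, was the sole LPS sample within the ns range. Hspa8 rose 2.68-fold in WT (log2 1.42 ± 0.32 SE, adjusted p = 0.0010, edgeR) and 2.23-fold in KO (log2 1.16 ± 0.27, adjusted p = 0.0017). The highest sample of each LPS group, WT LPS 7 and KO LPS 5, was one of the 6 with over 2% mitochondrially encoded counts. Without all 6 of these the difference was 1.04 ± 0.22 in WT (adjusted p = 0.00042) and 1.06 ± 0.21 in KO (adjusted p = 0.00017).

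**Figure D2:**
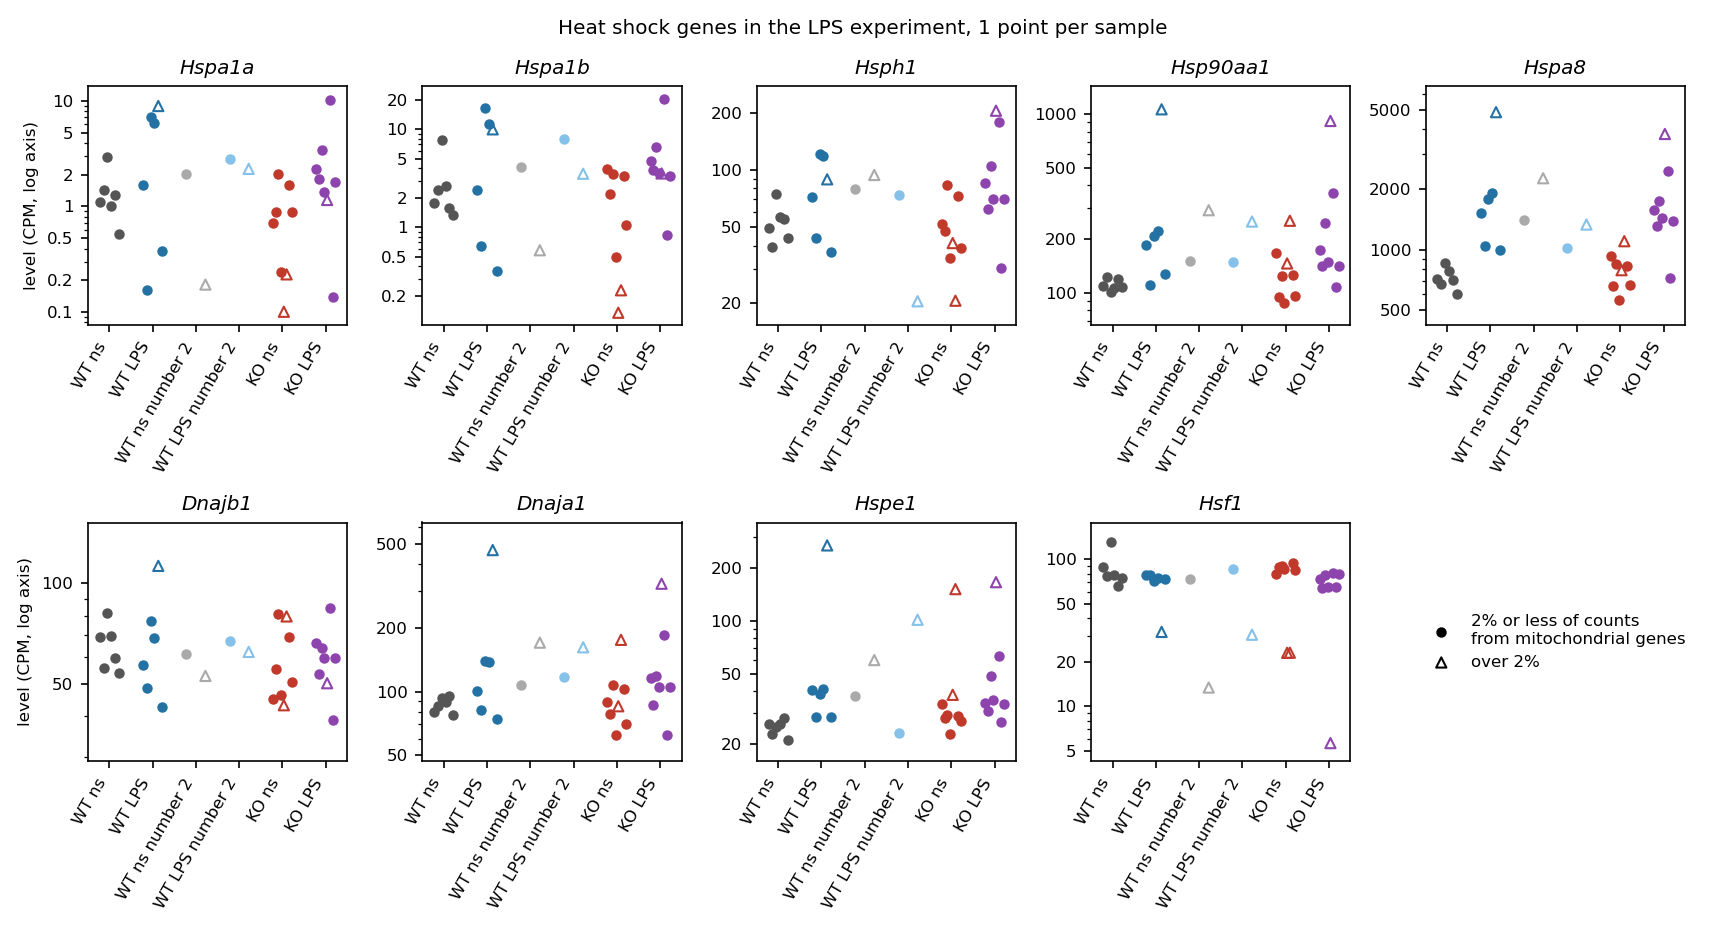
Level of each heat shock gene in each sample of the LPS experiment, in CPM on a log axis, with 1 point per sample and the WT libraries whose name ends in 2 in columns of their own and open triangles for samples with over 2% mitochondrially encoded counts. In the Hspa8 panel the 6 WT ns samples lie between 600.1 and 857 CPM and the 6 WT LPS samples between 993 and 4852 CPM. Hspb1 is left out because it had too few counts.

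Altogether 3 of 9 members tested were called in WT, all higher, where 30.3% of the 15857 genes tested were called and 14.8% called higher. In KO 2 of 9 were called, both higher, where 28.3% were called and 13.1% called higher. In both genotypes 8 of the 9 estimates lay above 0, with a median of 1.31 in WT and 0.94 in KO, against -0.01 and -0.02 over all genes tested. The exception was Hsf1 in both. Counts of 3 and 2 among 9 are near the share of all genes called and are no result about the heat shock genes as a group.

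The inducible Hsp90 gene Hsp90aa1 lay at 102 to 124 CPM (median 109) in WT ns and 111 to 1065 CPM (median 198) in WT LPS samples. In KO it lay at 88.5 to 254 CPM (median 126) in ns and 109 to 917 CPM (median 162) in LPS samples. The ns and LPS groups overlapped in both genotypes, and WT LPS 7 and KO LPS 5 were again highest. The difference passed in WT (log2 1.34 ± 0.45, adjusted p = 0.025, edgeR) and not in KO (0.94 ± 0.39, adjusted p = 0.070). Without WT LPS 7 the WT difference was 0.70 ± 0.40 (adjusted p = 0.23). Without all 6 libraries of high mitochondrial share it was 0.66 ± 0.26 in WT (adjusted p = 0.034) and 0.72 ± 0.24 in KO (adjusted p = 0.014).

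Hspe1, the mitochondrial co-chaperonin, lay at 21.2 to 27.99 CPM (median 25.4) in WT ns and 28.4 to 269 CPM (median 39.5) in WT LPS samples, with no overlap. It lay at 22.6 to 152 CPM (median 29.04) in KO ns and 26.7 to 166 CPM (median 34.9) in KO LPS samples, which overlapped widely. Hspe1 rose in WT (log2 1.31 ± 0.49, adjusted p = 0.044, edgeR), while in KO the difference was 0.32 ± 0.42 (adjusted p = 0.64). The samples at 269, 152 and 166 CPM were WT LPS 7, KO ns 6 and KO LPS 5, all of high mitochondrial share. These samples also had the highest neutrophil marker sums of their groups: 15890 CPM in WT LPS 7 against 2999 to 4376 CPM in the other WT LPS samples, 10570 CPM in KO ns 6 against 314 to 7981 CPM, and 5333 CPM in KO LPS 5 against 1598 to 4684 CPM. Monocyte markers summed to 2996 CPM in WT LPS 7 against 454 to 857 CPM in the other WT LPS samples. The WT ns samples with the most neutrophil marker counts, 18680 CPM in WT ns 3 and 17450 CPM in WT ns 8, were not of high mitochondrial share. The part of these cells in the levels was not tested. Without the 6 such libraries the estimates drew together, at 0.55 ± 0.17 in WT (adjusted p = 0.0095) and 0.49 ± 0.16 in KO (adjusted p = 0.012). Without WT LPS 7 alone the WT value was 0.62 ± 0.45 (adjusted p = 0.35). Hspe1 and Hspd1, which encodes its partner Hsp60, lie head to head on chromosome 1 and overlap at their starts, so some of their reads may not be assignable.

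Hsph1 lay at 20.5 to 83.8 CPM (median 44.5) in KO ns and at 30.3 to 206 CPM (median 78.1) in KO LPS samples. In WT it lay at 39.1 to 74.7 CPM (median 52.2) in ns and at 37.2 to 121 CPM (median 80.9) in LPS samples. The groups overlapped in both genotypes, and KO LPS 5 and KO LPS 6 were the highest of theirs. Hsph1 rose in KO (log2 1.05 ± 0.34, adjusted p = 0.022, edgeR) and missed the threshold in WT (0.60 ± 0.39, adjusted p = 0.26). In KO the call was lost without KO LPS 5 (0.82 ± 0.33, adjusted p = 0.060), without KO LPS 6 (0.88 ± 0.34, adjusted p = 0.060) and without the 6 libraries of high mitochondrial share (0.67 ± 0.35, adjusted p = 0.11).

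The inducible Hsp70 genes were sparse in the LPS experiment, with 3 to 478 counts of Hspa1a and 3 to 1260 counts of Hspa1b per sample. Hspa1a lay at 0.55 to 2.93 CPM (median 1.19) in WT ns, 0.16 to 8.93 CPM (median 3.87) in WT LPS, 0.10 to 2.01 CPM (median 0.79) in KO ns and 0.14 to 10.2 CPM (median 1.78) in KO LPS samples. The WT LPS samples spread to both sides of the WT ns samples: WT LPS 3 and the summed sample of WT LPS 8 and 9 were below all of them, WT LPS 4, 5 and 7 above, and WT LPS 2 among them. The sum of Hspa1a and Hspa1b differed by 1.42 ± 0.81 in WT (95% interval -0.24 to 3.09, adjusted p = 0.19, edgeR) and by 1.78 ± 0.72 in KO (95% interval 0.31 to 3.25, adjusted p = 0.064). KO LPS 6, at 10.2 CPM of Hspa1a, stood far above the next sample at 3.42 CPM, and without it the KO difference of the sum was 0.97 ± 0.65 (adjusted p = 0.31). DESeq2, which called 31.8% of all genes in KO, called Hspa1a and Hspa1b there.

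Of the J-domain partners, Dnajb1 did not follow: its log2 difference was 0.06 ± 0.21 in WT (95% interval -0.38 to 0.49) and 0.02 ± 0.18 in KO (95% interval -0.35 to 0.40). Its levels were 53.6 to 81.7 CPM in WT ns, 42.6 to 113 CPM in WT LPS, 43.0 to 80.9 CPM in KO ns and 38.9 to 84.4 CPM in KO LPS samples. Dnaja1 differed by 0.85 ± 0.35 in WT (adjusted p = 0.064, edgeR) and 0.49 ± 0.30 in KO (adjusted p = 0.25). In WT, Dnaja1 ranged from 77.9 to 94.96 CPM in ns and from 74.6 to 466 CPM in LPS samples, and the top value was again WT LPS 7. DESeq2, which called 34.9% of all genes in WT, called Dnaja1 there at 0.89 ± 0.36 (adjusted p = 0.042). Without WT LPS 7 its WT difference was 0.37 ± 0.31 (adjusted p = 0.44, edgeR).

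Hsf1, the regulator, lay at 65.8 to 132 CPM (median 78.0) in WT ns, 32.2 to 78.9 CPM (median 74.4) in WT LPS, 23.2 to 94.1 CPM (median 85.1) in KO ns and 5.63 to 80.6 CPM (median 69.7) in KO LPS samples. Its log2 difference was -0.33 ± 0.41 in WT (adjusted p = 0.59, edgeR) and -0.12 ± 0.35 in KO (adjusted p = 0.85). It was at 5.63 to 32.2 CPM in the 6 libraries with over 2% mitochondrially encoded counts and at 63.6 to 132 CPM in the other 26, with no overlap. The part of this library difference in the group values was not tested beyond leaving those libraries out, which gave Hsf1 differences of -0.17 ± 0.12 in WT and -0.23 ± 0.11 in KO. Hspb1 had 0 to 53 counts per library, was removed by the filter on low counts and was not tested.

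Results in the LPS experiment were therefore also set beside those of other choices of libraries. With every library taken as labelled, the 4 WT libraries ending in 2 included, 0% of all genes and 0 of 9 members were called in WT, and the WT difference of Hspa8 was 0.82 ± 0.32 (adjusted p = 0.15, edgeR). The libraries labelled WT ns and ending in 2 had 1410 and 2274 CPM of Hspa8, inside the WT LPS range, and those labelled WT LPS had 1018 and 1337 CPM, at the low end of it. In library set 1 alone Hspa8 and Hspe1 were called in both genotypes, Hspa8 at 0.98 ± 0.21 in WT and 1.04 ± 0.18 in KO, where 42.6% of all genes in WT and 44.9% in KO were called. In library set 2 alone none of the 9 was called in either genotype, where 3.62% of all genes in WT and 4.65% in KO were called. The estimates there were larger with wider errors: Hspa8 was at 1.85 ± 0.59 in WT and 1.41 ± 0.51 in KO, and Hsp90aa1 at 2.01 ± 0.82 and 1.42 ± 0.70. Without the 6 libraries of high mitochondrial share the same genes, Hspa8, Hsp90aa1 and Hspe1, were called in both genotypes, where 54.6% of all genes in WT and 55% in KO were called.

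**Figure D3:**
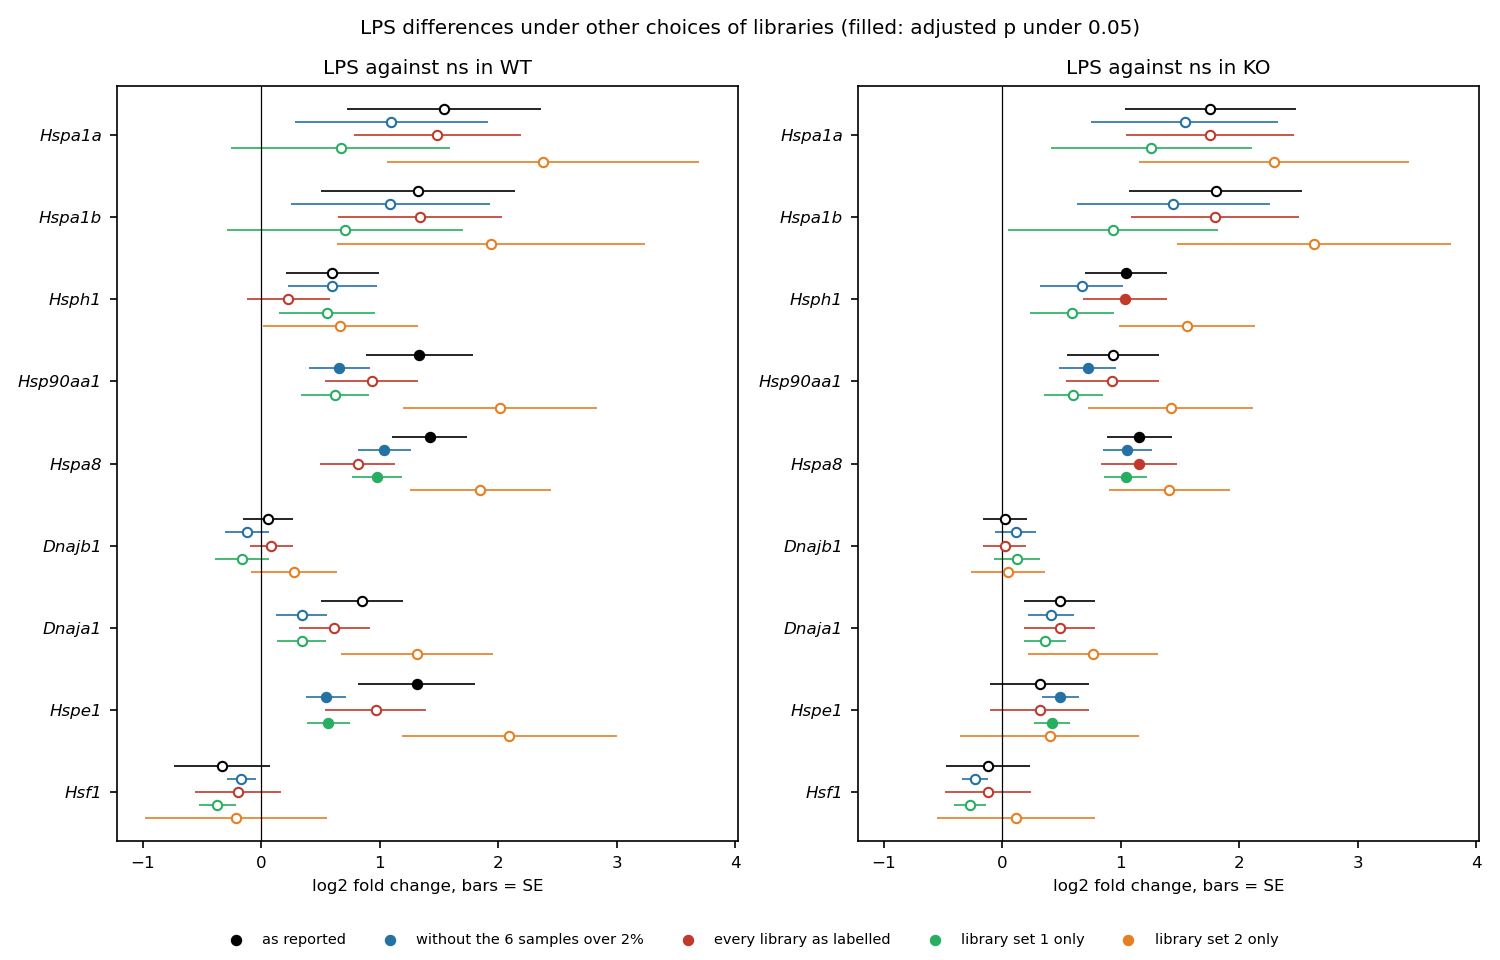
Log2 fold change of LPS against ns for each heat shock gene in WT (left) and KO (right), with bars for the SE, as reported and under 4 other choices of libraries. Filled points have an adjusted p under 0.05. Hspa8 stays between 0.82 and 1.85 in WT and between 1.04 and 1.41 in KO over these choices. Hspb1 is left out because it had too few counts.

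The genotypes were compared at ns, under LPS and in their response. At ns 0 of 9 members were called, where 0.0883% of all genes were, and under LPS 0 of 9, where 0.0946% were. The KO against WT estimates at ns were 0.67 ± 0.46 for Hspe1, 0.25 ± 0.41 for Hsp90aa1, 0.13 ± 0.29 for Hspa8, 0.12 ± 0.32 for Dnaja1, -0.12 ± 0.37 for Hsph1, -0.15 ± 0.20 for Dnajb1, -0.30 ± 0.38 for Hsf1, -0.66 ± 0.75 for Hspa1b and -0.74 ± 0.76 for Hspa1a. Under LPS they ran from -0.53 ± 0.73 for Hspa1a to 0.33 ± 0.37 for Hsph1. The test of whether the LPS response differed between genotypes called 0 of 9 and 0% of all genes. No member had an unadjusted p under 0.05 in any of these edgeR tests, and DESeq2 called none. Of all 15857 genes tested 1415 had such a p at ns, 957 under LPS and 756 in the response (edgeR). For Hspa8 the difference in response was -0.27 ± 0.41 (95% interval -1.11 to 0.57), and for the summed Hsp70 pair 0.36 ± 1.05 (95% interval -1.79 to 2.50). Hspe1 had the lowest adjusted p, 0.76, at -0.998 ± 0.642 (95% interval -2.31 to 0.32). Under LPS the KO against WT estimates of Hspa1b, Hsp90aa1, Hspa8, Dnaja1, Dnajb1 and Hspe1 lay below 0 with all samples and above 0 without WT LPS 7. The intervals leave room for differences of more than a log2 unit for several members.

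**Figure D4:**
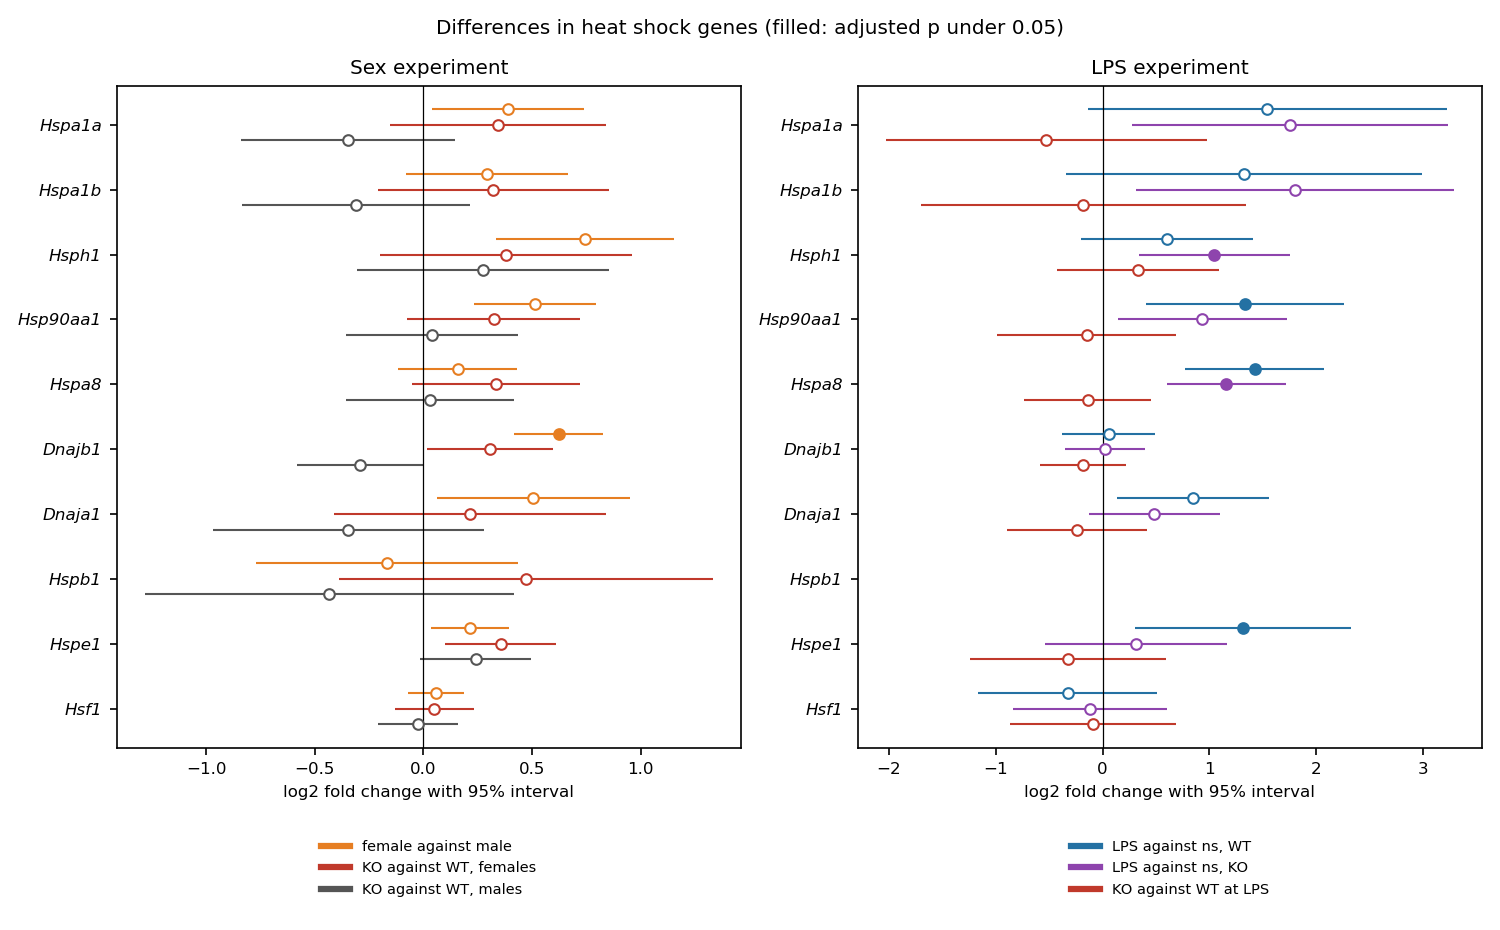
Log2 fold changes of the heat shock genes with 95% intervals, for sex and genotype in the sex experiment (left) and for LPS and genotype in the LPS experiment (right). Filled points have an adjusted p under 0.05: Dnajb1 in females against males, Hsp90aa1, Hspa8 and Hspe1 under LPS in WT, and Hsph1 and Hspa8 under LPS in KO. Hspb1 has no points on the right because it had too few counts.

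Chaperones outside the 10 genes were called under LPS as well. Of 60 tested, 20 were higher and 6 lower in WT, with a median log2 difference of 0.44, and 12 were higher and 6 lower in KO, with a median of 0.20. The shares called over all genes, given above, were 30.3% for WT and 28.3% for KO, with 14.8% and 13.1% called higher, so that the 18 calls in KO lie near the share of all genes and are no result about chaperones. The chaperonins, ring complexes that enclose their substrates, had the most calls of the groups listed in WT, where 8 of 9 rose. In KO 4 of 9 rose, while the Hsp70 group of 8 genes and the group of Hsp90 and its co-chaperones, of 18, each had 3 higher and 1 lower. Hspd1, the mitochondrial Hsp60, rose by 1.27 ± 0.28 in WT (adjusted p = 0.0010, edgeR) and by 1.09 ± 0.24 in KO (adjusted p = 0.0010). Hspa9, the mitochondrial Hsp70, rose by 1.10 ± 0.20 in WT and by 0.83 ± 0.17 in KO, from 104 ± 8.8 to 226.5 ± 88.3 CPM and from 127 ± 26.04 to 228 ± 88.9 CPM (mean ± SD, n = 6 and 6, 8 and 8). Bag1, a nucleotide exchange factor of Hsp70, rose by 0.84 ± 0.14 and 0.58 ± 0.12, and Cct2, a subunit of the cytosolic chaperonin, by 1.22 ± 0.26 in WT. Hsp90ab1, the constitutive Hsp90, rose by 1.16 ± 0.25 in KO, and Trap1, the mitochondrial Hsp90, by 0.48 ± 0.11. Hspa12a, a distant Hsp70 relative, fell by 2.01 on the log2 scale in WT and by 1.65 in KO, and the small heat shock gene Hspb3 fell by 1.65 and 1.49. None of the 60 differed by genotype at ns, under LPS or in the response, with 1, 0 and 0 at an unadjusted p under 0.05. The counts over all genes at such a p are given above. Without the 6 libraries of high mitochondrial share 39 of them were called in WT, where 54.6% of all genes were, and 41 in KO, where 55% were, and with every library as labelled 0 were called in WT.

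Over the 32 samples of the LPS experiment the genes that ran most like the mean of Hspa1a, Hspa1b, Dnajb1 and Hsph1 were Ahsa2 (r = 0.80), Chst7 (r = 0.78), Fkbp4 (r = 0.76), Stip1 (r = 0.74) and Erp29 (r = 0.71). None of them is among the 5 named for the sex experiment. Among the members Dnaja1 and Hsp90aa1 correlated with r = 0.96, Hspa1a and Hspa1b with r = 0.94, and Hsf1 and Hspe1 with r = -0.73, over samples that share treatment, library set and mitochondrial share.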

How the data were processed

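RNA of CD11b-positive brain cells was sequenced after poly(A) selection on an Illumina NovaSeq, per the labels' protocols. Each experiment has 1 table of raw counts by gene, which the authors deposited as whole numbers with no normalization. STAR 2.6.1, featureCounts (Subread), FastQC, DESeq2 and the build GRCm39 are named in the submitters' processing notes. Per the file headers, the genes of the sex experiment had RefSeq GRCm39 coordinates and a length equal to their whole span, so introns were counted. The header of the LPS table gives no coordinates, and the 2 tables were never fitted together. The strand setting and the settings of the tools are not given in the sources used here.

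Columns were matched to samples by name, groups were taken from the labels, and 0 columns were left without a sample. In the LPS experiment a library name gives a set (1 or 2) and a library number, and the number printed after a group names a sample in accession order. The chi-square between WT LPS 8 and 9, divided by its degrees of freedom, was 1.86, where other pairs within a group reached 8.32 or more, and their counts were summed as 1 sample, which leaves 32 from 33 columns. Nothing in the labels says that the samples of the LPS experiment came from separate animals, so p-values measure the spread between these samples.

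Counts were filtered with filterByExpr of edgeR 4.0.16 (R 4.3.3), leaving 31709 genes in the sex and 15857 in the LPS experiment, normalized with TMM and tested by the robust quasi-likelihood F test of edgeR. One model per experiment held the group means, for the LPS experiment with library set as a covariate and the 4 WT libraries of number 2 as 2 groups of their own. P-values were adjusted by Benjamini-Hochberg over all genes tested, and a gene was called at an adjusted p under 0.05. The scripts were tested on simulated data. CPM used the TMM-scaled totals, and intervals on log2 fold changes are at 95%. Promoter sequences came from RefSeq (GRCm38.p6), matched by symbol.

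The rule for named genes took all 10 members in every comparison, given by value or by the range of their estimates where tested, with up to 6 called genes of lowest adjusted p among the other chaperones of the list. The 10 members, the gene lists and the comparisons were chosen with earlier results of these data known. Alternatives were DESeq2 1.42.0, RLE scaling, no filter, every library as labelled, and no libraries of number 2 of either genotype. Further ones were WT LPS 8 and WT LPS 9 as 2 samples, no covariate, each library set alone, a replicate block, and each animal left out. Leaving out each LPS library, the libraries of over 2% mitochondrially encoded counts, or the 2 animals of over 20000 CPM of neutrophil markers was chosen after seeing the data.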

Additional observations from a re-analysis of the deposited data

Results flagged for a closer look

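Within a group, 1 sample stood apart from the others by Dixon's gap test at the 95% level in 18 of the 80 tests of a member in a group. Chance alone flags about 1 in 20 groups where values are normally distributed and tests are independent. The tests were run on CPM and several members run together across samples, so the 18 cannot be set against that rate. Of the 18, 11 fell in libraries with over 2% mitochondrially encoded counts. WT LPS 7 was the highest of its group for Hspa8 (4852 CPM, the next 1915), Hsp90aa1 (1065 CPM, the next 223), Dnaja1 (466 CPM, the next 139) and Hspe1 (269 CPM, the next 40.9), and the lowest for Hsf1 (32.2 CPM, the next 71.0). KO LPS 5 was the highest for Hsp90aa1 (917 CPM, the next 365), Dnaja1 (323 CPM, the next 186) and Hspe1 (166 CPM, the next 62.8), and the lowest for Hsf1 (5.63 CPM, the next 63.6). KO ns 6 was the highest for Hspe1 (152 CPM, the next 38.0) and Dnaja1 (176 CPM, the next 108).

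The other 7 fell in libraries of lower mitochondrial share. KO LPS 6 was the highest for Hspa1a (10.2 CPM, the next 3.42) and Hspa1b (20.5 CPM, the next 6.63). WT ns 4, the library with 168.4 M counts, M standing for mega, was the highest of its group for Hspa1a (2.93 CPM, the next 1.43), Hspa1b (7.72 CPM, the next 2.64) and Hsf1 (132 CPM, the next 89.2). Hspb1 was low in WT LPS 2, at 0.034 CPM and 1 count, and in female WT 5, at 3.28 CPM against 6.67 CPM in the next animal.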

How the results depend on the processing

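Changes of sign are named below only where either value was called or the value moved by over 1 SE. Of 3204 refitted differences 153 changed sign, none of them a called difference, and 21 did so by over 1 SE. The number of members called in females against males was 1, and 3 with DESeq2, with a range of 1 to 2 over the leave-one-out fits (2 without male WT 5). Of all genes 0.861% were called there in the main fit and 2.38% with DESeq2. Under LPS in KO the 2 called became 4 with DESeq2, 1 with the replicate block and 0 in set 2 alone. The shares of all genes called were 28.3% in the main fit, 31.8% with DESeq2, 34.2% with the replicate block and 4.65% in set 2 alone. With no libraries of number 2, those of KO left out as well, the 2 became 1, where 29.3% of all genes were called. Over the leave-one-out fits 1 to 5 members were called in KO. There were 1 without KO LPS 5 or KO LPS 6, 4 without WT LPS 3 and 5 without WT LPS 7 or KO LPS 7. Under LPS in WT the 3 called became 0 with every library as labelled and 0 in set 2 alone, with 1 to 4 over the leave-one-out fits, 1 without WT ns 6, WT ns 7, WT ns 8 or WT LPS 7. DESeq2 called Dnaja1 in WT besides the 3. Of all genes 30.3% were called in WT in the main fit, 0% with every library as labelled, 3.62% in set 2 alone and 34.9% with DESeq2. The share over all genes was not recorded for the leave-one-out fits. With the replicate block 2 members were called in WT, where 35.6% of all genes were. Under the block Hsph1 in KO was at 0.92 (adjusted p = 0.061, edgeR), Hspe1 in WT was at 0.93 (adjusted p = 0.056), and no other call changed. Same-numbered samples had a mean r of 0.16 over 8 pairs of the sex and 0.25 over 45 pairs of the LPS experiment. These means were above those of other pairs, -0.04 over 32 pairs and 0.11 over 147. Of the same-numbered pairs 6 of 8 and 32 of 45 had an r over 0.1, but values ran down to -0.10 and -0.67. Numbers were not taken to pair samples in the main fits, and a partial pairing remains possible. Every genotype comparison and interaction called 0 members under each alternative run.

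Differences that changed sign were, for KO against WT with the sexes averaged, Dnaja1 at 0.14 without the 2 animals of many neutrophil counts. In males they were Hsp90aa1 at -0.15 without male WT 4, and Dnaja1, which ranged from -0.54 to 0.0025 over the leave-one-out fits (highest without male WT 5), at 0.0064 without those 2 animals. Under LPS they were Hspe1 in KO at -0.11 with no libraries of number 2 and Dnajb1 in WT at -0.16 in set 1 alone. The former fit also left out KO ns 1, KO ns 5, KO LPS 1 and KO LPS 5. At ns, Hspa8 in KO against WT was -0.32 with every library as labelled. For KO against WT under LPS, Hspa1b was 0.69 and the Hspa1a and Hspa1b sum 0.50 with the replicate block, Dnajb1 was 0.052 and Hspe1 0.13 without the libraries of high mitochondrial share, and the leave-one-out fits, highest without WT LPS 7, ran from -0.61 to 0.62 for Hsp90aa1, -0.35 to 0.32 for Hspa8, -0.28 to 0.051 for Dnajb1, -0.49 to 0.33 for Dnaja1 and -0.67 to 0.49 for Hspe1. For the difference in response, Hspa8 was 0.34 with every library as labelled, Dnajb1 0.29 in set 1 alone, and the leave-one-out fits, again highest without WT LPS 7, ran from -0.87 to 0.335 for Hsp90aa1, -0.48 to 0.17 for Hspa8 and -0.62 to 0.18 for Dnaja1. The causes were not tested. Depth limits Hspa1a in the LPS experiment, where a sample held as few as 3 counts.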

Other observations

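The 2 tables were counted and scaled separately, so their levels can only be set side by side. Hspa1a lay at 111 to 412 CPM in the sex experiment and at 0.10 to 10.2 CPM in the LPS experiment, ns samples included. Hspb1 lay at 2.08 to 14.0 CPM and at 0 to 0.61 CPM. The sum of 18 immediate early genes lay at 4252 to 10190 CPM and at 387 to 1441 CPM. Hspa8, the constitutive member, lay at 310 to 683 CPM in the sex experiment and at 563 to 1104 CPM in the ns samples of the LPS experiment. The share of Hspa1a in the counts of the Hspa1a and Hspa1b pair was 39.3% to 44.8% (median 43%) over the animals of the sex experiment and 14.3% to 51.2% (median 32.8%) over the samples of the LPS experiment, where counts of the pair were low. The experiments differ in their animals, their libraries and their counting, and these cannot be told apart.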
